A study of Mus musculus with 16 samples.

Results

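Type I interferon response genes are the genes that cells switch on when type I interferon reaches them. The set described here holds 38 genes known as its targets, matched by gene symbol with no measured value entering the match. All 38 were found, among 18194 genes read by the arrays. Each gene was read by 1 probe set, the one with the highest mean among those that carry its symbol alone.

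Type I interferons, interferon beta and the interferon alphas, are secreted when sensors meet viral or misplaced nucleic acid. They bind a receptor made of IFNAR1 and IFNAR2, whose kinases JAK1 and TYK2 phosphorylate STAT proteins, STAT2 among them. STAT2 works with IRF9 in a complex that binds a DNA element called the interferon-stimulated response element (ISRE) at target genes. Macrophages keep a low level of this response even without infection, and in tumours it is known as one of the programmes that differ between macrophage populations.

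Tumour-associated macrophages (TAMs) were sorted from the peritoneal lavage of female C57BL/6N mice, in which ovarian tumours had grown from the mouse cell line ID8-luc. The 4 groups were CCR2+ RbpjiΔEC, CCR2+ Control, CCR2- RbpjiΔEC and CCR2- Control, with 4 Affymetrix arrays each. RbpjiΔEC names an inducible loss of Rbpj, the DNA-binding partner of Notch receptors, in endothelial cells; whether the sorted cells kept Rbpj was not tested. The protocol in the labels is the same for both genotypes: 1 oral dose of 1 mg tamoxifen at 8 to 12 weeks of age, tumour cells into the peritoneum 3 weeks later, and 4 weeks of growth before lavage. The Cre driver, the alleles that control mice carry and whether each array is a separate animal are not given in the sources used here. The p-values therefore measure the spread between these samples, which may be technical. The gate took cells with CD45, CD11b and the macrophage antigen that Adgre1 encodes on their surface, and CCR2, the receptor that draws inflammatory monocytes into tissue, set the label.

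Values below are log2 intensities after quantile normalization over the 16 arrays. A bacterial trp control that mouse RNA should not bind averaged 6.42, and Mx2 was the 1 gene of the set with a group mean within 0.5 of it. The labels and the markers did not match. Ccr2 itself averaged 7.69 in CCR2+ against 8.94 in CCR2- arrays of RbpjiΔEC mice (adjusted p = 0.135), and 7.99 in CCR2+ against 9.99 in CCR2- arrays of control mice (adjusted p = 0.0184), so its RNA ran against the label. Adgre1, part of the gate for both labels, averaged 13.24 in CCR2+ against 9.08 in CCR2- arrays of RbpjiΔEC mice. All 11 markers of large peritoneal macrophages were called higher in CCR2+ arrays in both genotypes (median difference 4.84 in RbpjiΔEC and 5.14 in control mice), and all 9 measured B cell markers were called lower (median −5.55 in RbpjiΔEC and −5.51 in control mice). The mean level of the B cell markers ran from 7.06 to 7.36 across the CCR2+ arrays and from 12.51 to 12.63 across the CCR2- arrays. "CCR2+" and "CCR2-" therefore stand for the deposited labels only. The columns also differed in kind: in CCR2+ arrays 2.58% to 2.91% of the deposited values were whole numbers after multiplication by 1 whole factor of at most 22 (tolerance 0.001), against 100% in CCR2- arrays. The label, the cell makeup and the kind of column cannot be told apart, and in bulk RNA fewer cells of a type and less RNA per cell cannot be told apart either.

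The comparison of the sort labels asked how the interferon programme differs between the sorted populations. It split the set. In RbpjiΔEC mice 20 of the 38 genes were called higher in CCR2+ arrays (limma adjusted p below 0.05 over all genes), where 18.1% of all genes were called higher. Another 5 were called lower, where 21% of all genes were, and 13 were not called. In control mice 23 were called higher and 5 lower, against 19.4% and 21.4% of all genes, and 10 were not called. The median difference over the set was 0.45 in RbpjiΔEC and 0.67 in control mice, while over all genes it was −0.028 in RbpjiΔEC and −0.031 in control mice. The same 20 genes were higher and the same 5 lower in both genotypes, and no gene was called in opposite directions. Both counts of 5 lower rested on quantile normalization: with median centring, or with no normalization between arrays, Ifit2 was the 1 gene still called lower in each genotype. All 20 shared higher calls held under both. The counts were then 22 higher and 1 lower in RbpjiΔEC and 26 higher and 1 lower in control mice with median centring, and 29 higher and 1 lower in RbpjiΔEC and 26 higher and 1 lower in control mice with no normalization.

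**Figure D1:**
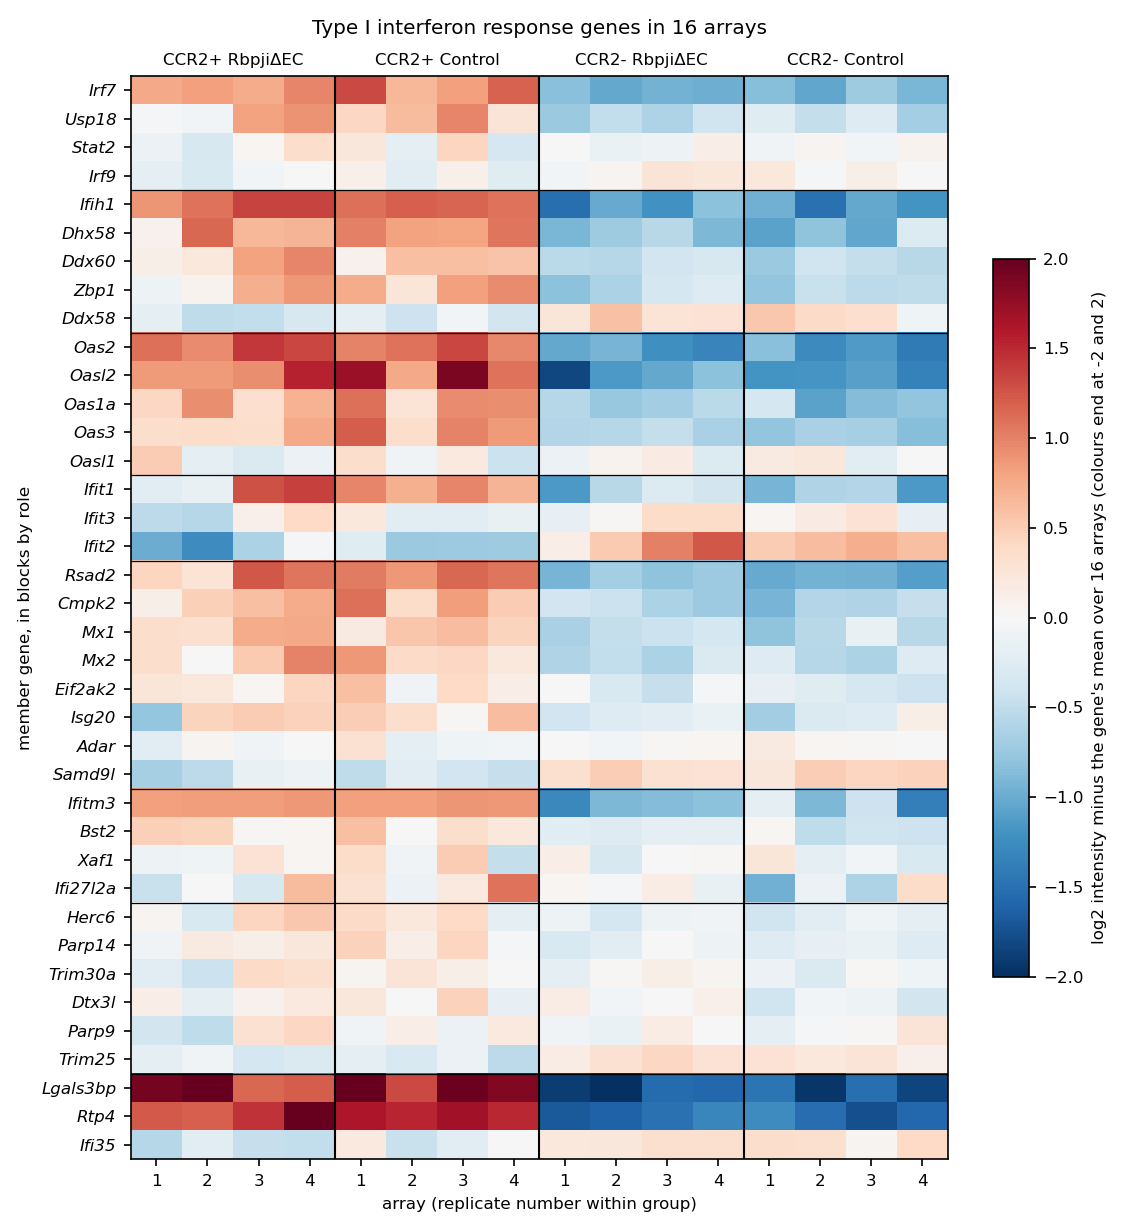
Heat map of the 38 genes (rows, in blocks by role) in the 16 arrays (columns, CCR2+ RbpjiΔEC first); colour is log2 intensity minus the gene's mean over 16 arrays, in log2 units, and ends at −2 and 2. Lgals3bp, Rtp4, Ifih1, Oas2 and Irf7 are red in all 8 CCR2+ arrays and blue in all 8 CCR2- arrays, while Ifit2, Samd9l and Ddx58 run the other way (the last pair was called lower under quantile normalization alone). The exception is Ddx58 in CCR2- Control replicate 4, where 10.67 lies below the gene's mean of 10.76.

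**Figure D2:**
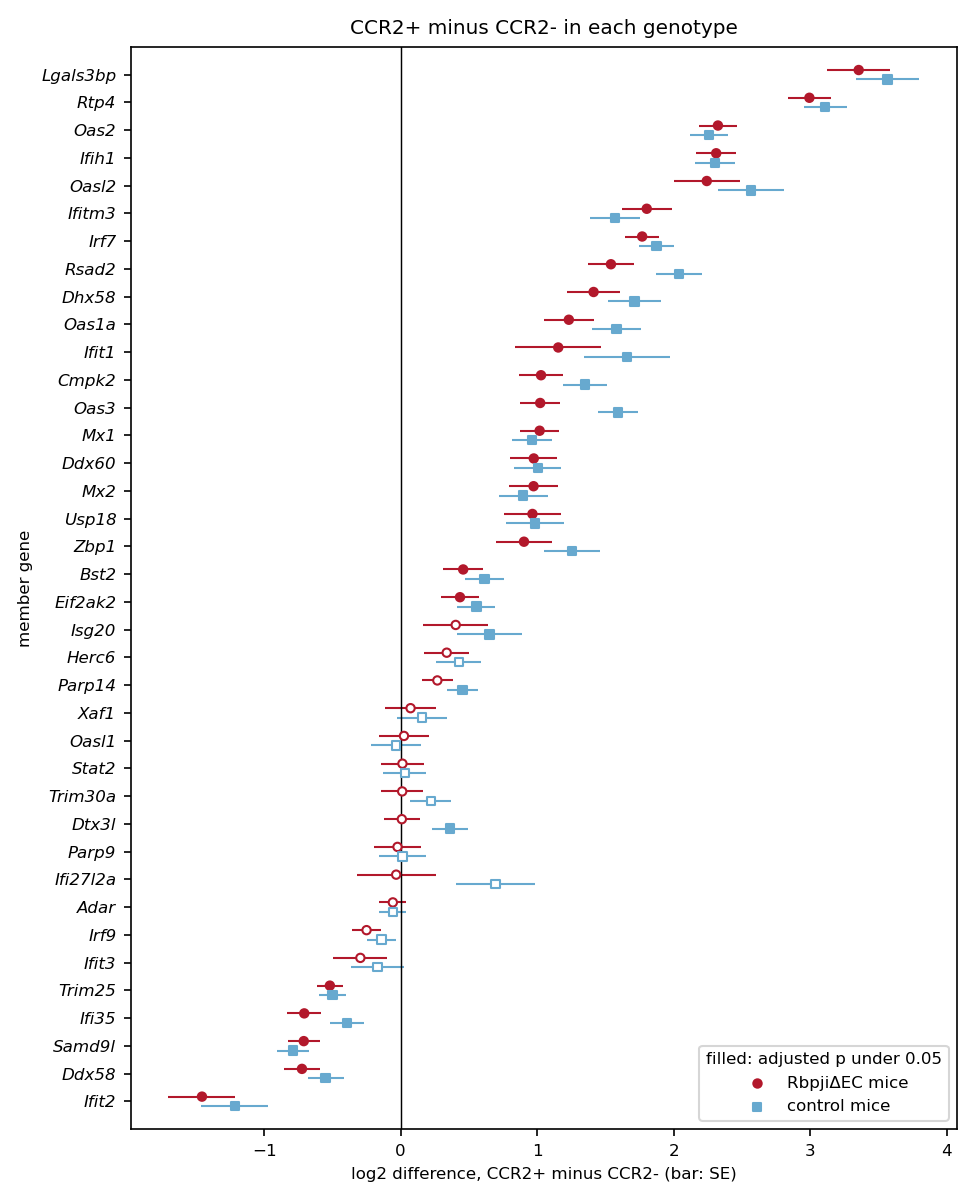
Log2 difference, CCR2+ minus CCR2-, of each gene (rows) with its SE, in RbpjiΔEC mice (circles) and control mice (squares), 4 arrays a group; filled symbols had adjusted p below 0.05. The differences run from −1.45 to 3.35 in RbpjiΔEC and from −1.21 to 3.57 in control mice, and of the 5 genes filled at the bottom only Ifit2 kept its call under the other scalings.

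Promoters are shown to describe the set. RefSeq promoter sequences (build GRCm38.p6, 250 bases before to 50 after the annotated start of transcription) were at hand for 28 of the 38 genes; Mx1, Mx2, Oas2, Usp18, Zbp1, Dhx58, Rtp4, Ifi27l2a, Parp9 and Parp14 have none here. The ISRE core was searched as GAAA, any 2 bases, GAAA, on both strands. It was present in 13 of the 28 genes (46.4%), against 3.99% of 27025 genes with a promoter. The set was chosen as known interferon targets, so this share does not bear on the label differences. Of the 15 genes called higher in control mice that have a promoter 9 held it, of the 5 called lower 1 did (Ddx58), and of the 8 not called 3 did. Among the 5 called lower, only Ifit2 kept its call under the other scalings. Such matches describe the letters in the window and not the binding of a factor.

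The stretches that carry the core in genes with large differences are given 5′ to 3′ along the gene, with the core in capitals; TTTC, any 2 bases, TTTC is the same core read from the opposite strand. For Rsad2, Oas3 and Ifit1 the stretch is the 200 bases before the start, and Irf7, whose window has no match, is given the same way for comparison. For Ifih1, Ifitm3 and Ddx58, where the core lies just past the start, 30 bases around it are given. Ifit1 was added after its values were seen, because of its contrast with Ifit2.
Rsad2 (chr12:26456453-26456652, minus strand): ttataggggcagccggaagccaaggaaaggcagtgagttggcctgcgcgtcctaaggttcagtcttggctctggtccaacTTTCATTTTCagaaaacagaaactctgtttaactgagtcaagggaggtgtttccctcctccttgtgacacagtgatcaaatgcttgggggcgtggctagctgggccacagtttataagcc
Oas3 (chr5:120777660-120777859, minus strand): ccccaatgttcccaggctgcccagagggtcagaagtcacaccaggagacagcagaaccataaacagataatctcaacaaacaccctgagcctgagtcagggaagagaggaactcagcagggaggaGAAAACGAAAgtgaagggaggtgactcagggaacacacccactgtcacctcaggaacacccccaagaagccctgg
Ifit1 (chr19:34640689-34640888, plus strand): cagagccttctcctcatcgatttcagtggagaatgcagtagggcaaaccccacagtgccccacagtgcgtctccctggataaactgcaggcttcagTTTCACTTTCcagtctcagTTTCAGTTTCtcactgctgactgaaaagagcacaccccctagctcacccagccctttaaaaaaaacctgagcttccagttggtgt
Irf7 (chr7:141266425-141266624, minus strand): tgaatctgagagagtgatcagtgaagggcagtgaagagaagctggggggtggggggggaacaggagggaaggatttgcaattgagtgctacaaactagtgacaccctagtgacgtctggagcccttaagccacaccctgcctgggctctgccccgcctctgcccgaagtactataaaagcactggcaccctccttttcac
Ifih1 (chr2:62646206-62646235, minus strand): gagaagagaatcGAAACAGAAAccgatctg
Ifitm3 (chr7:141010715-141010744, minus strand): agGAAAAGGAAActtctgaGAAACCGAAAc
Ddx58 (chr4:40239804-40239833, minus strand): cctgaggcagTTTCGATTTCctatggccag
Ifitm3 had its cores at 3 and 20 bases past the start. Counted from the start, the pair of Ifit1 lay at −104 and −85, the single core of Oas3 at −75 and that of Rsad2 at −120. Ifit2, in the same cluster as Ifit1 on chromosome 19, had no match in its window.

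**Figure D3:**
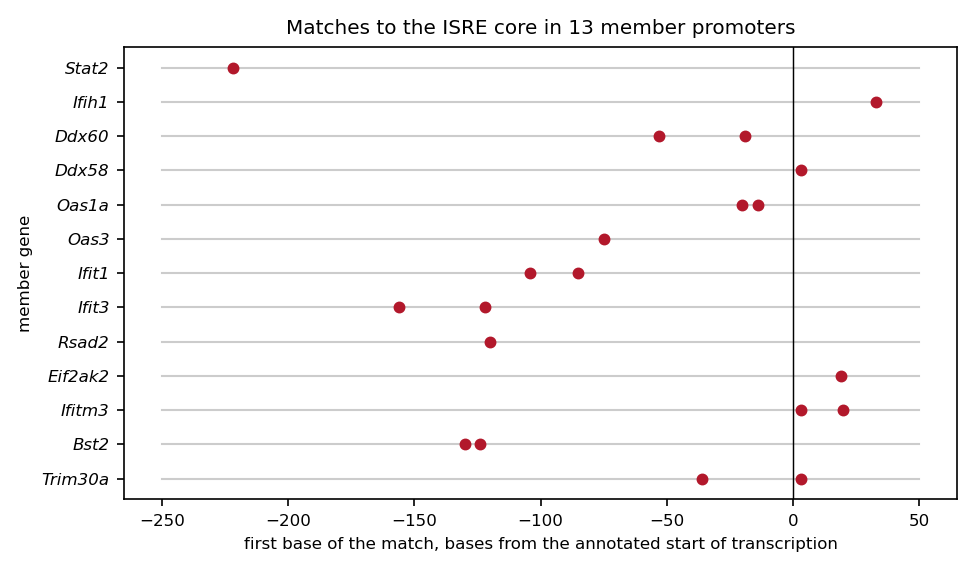
Position of each ISRE core match (dots) in the promoters of the 13 genes that hold one (rows); the x axis is the distance in bases of the first base of the match from the annotated start of transcription, and the grey line is the window searched, from 250 before to 50 after. Every match but that of Stat2, at −222, lies between −156 and 33.

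Among the transcription factors and the feedback protease, Irf7 and Usp18 were called higher in CCR2+ arrays. Irf9 and Stat2 were not called in either genotype in the main fit, with quantile normalization, all arrays and no replicate block. Irf7 is the factor that amplifies interferon production once it has been induced. In RbpjiΔEC mice Irf7 read 9.33, 9.40, 9.32 and 9.55 in CCR2+ arrays, against 7.75, 7.56, 7.63 and 7.59 in CCR2- arrays. Control mice gave 9.90, 9.24, 9.40 and 9.75 in CCR2+ and 7.73, 7.53, 7.87 and 7.66 in CCR2- arrays for Irf7. All 8 CCR2+ values lay above all 8 CCR2- values. The difference was 1.77 (SE 0.13, adjusted p = 5.68e-09) in RbpjiΔEC and 1.87 (SE 0.13, adjusted p = 2.64e-09) in control mice. Usp18 encodes the protease that removes ISG15 from proteins and blocks IFNAR2 signalling. Usp18 stood at 9.10, 9.07, 9.94 and 10.03 in the CCR2+ arrays of RbpjiΔEC mice, against 8.39, 8.64, 8.52 and 8.73 in the CCR2- arrays. In control mice Usp18 read 9.55, 9.76, 10.10 and 9.39 in CCR2+ arrays, against 8.89, 8.65, 8.87 and 8.44 in CCR2- arrays. The groups did not overlap in either genotype, and the CCR2+ values of RbpjiΔEC mice fell into a lower pair, replicates 1 and 2, and a higher pair. The difference was 0.97 (SE 0.21, adjusted p = 0.00145) in RbpjiΔEC and 0.98 (SE 0.21, adjusted p = 0.00119) in control mice.

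Stat2 and Irf9 encode subunits of the complex that binds the ISRE. The values of Stat2 in RbpjiΔEC mice were 9.68, 9.47, 9.83 and 10.15 in CCR2+ and 9.80, 9.66, 9.69 and 9.93 in CCR2- arrays. For Stat2, control mice had 10.02, 9.62, 10.23 and 9.46 in CCR2+ arrays and 9.73, 9.86, 9.75 and 9.87 in CCR2- arrays. The labels overlapped in both genotypes, and the difference was 0.013 (SE 0.16, adjusted p = 0.96) in RbpjiΔEC and 0.030 (SE 0.16, adjusted p = 0.905) in control mice. The 95% interval of the Stat2 difference ran from −0.32 to 0.35 in RbpjiΔEC mice. A second Stat2 probe set read differences of opposite sign in the genotypes, −0.12 in RbpjiΔEC and 0.20 in control mice. In RbpjiΔEC mice Irf9 read 10.30, 10.19, 10.44 and 10.50 in CCR2+ arrays, against 10.43, 10.55, 10.74 and 10.71 in CCR2- arrays. Control mice gave 10.60, 10.28, 10.59 and 10.24 in CCR2+ and 10.70, 10.46, 10.60 and 10.50 in CCR2- arrays for Irf9. Irf9 overlapped between the labels too. Its difference was −0.25 (SE 0.11, adjusted p = 0.0827) in RbpjiΔEC and −0.14 (SE 0.11, adjusted p = 0.342) in control mice. In RbpjiΔEC mice Irf9 was called lower without CCR2- replicate 1 (−0.31, adjusted p = 0.0445) and with a replicate block within genotype (adjusted p = 0.0315). The sign of Irf9 turned with median centring (0.069 in RbpjiΔEC and 0.29 in control mice) and with no normalization (0.36 in RbpjiΔEC and 0.34 in control mice). Stat2 was called higher in RbpjiΔEC mice with no normalization (0.55, adjusted p = 0.0316).

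The cytosolic sensors of nucleic acid were all called, 4 higher and 1 lower, in both genotypes. Ifih1 encodes MDA5, the sensor of long double-stranded RNA. Ifih1 stood at 10.81, 11.01, 11.27 and 11.27 in the CCR2+ arrays of RbpjiΔEC mice, against 8.41, 8.90, 8.70 and 9.09 in the CCR2- arrays. In control mice Ifih1 read 11.02, 11.11, 11.08 and 11.01 in CCR2+ arrays, against 8.96, 8.43, 8.90 and 8.72 in CCR2- arrays. The gap between the labels was more than 1.5 log2 units at its narrowest in both genotypes. The difference was 2.31 (SE 0.15, adjusted p = 1.51e-09) in RbpjiΔEC and 2.30 (SE 0.15, adjusted p = 1.57e-09) in control mice, a 4.96-fold higher level in RbpjiΔEC and a 4.94-fold higher level in control mice. Ddx58, which encodes RIG-I, the sensor of short triphosphate-ended RNA, ran the other way. The values of Ddx58 in RbpjiΔEC mice were 10.56, 10.25, 10.27 and 10.43 in CCR2+ and 10.996, 11.34, 11.02 and 11.04 in CCR2- arrays. For Ddx58, control mice had 10.57, 10.34, 10.70 and 10.39 in CCR2+ arrays and 11.29, 11.14, 11.09 and 10.67 in CCR2- arrays. All CCR2+ values of RbpjiΔEC mice lay below the CCR2- ones, while in control mice the groups overlapped because CCR2- replicate 4 was low. The difference was −0.72 (SE 0.13, adjusted p = 0.000284) in RbpjiΔEC and −0.55 (SE 0.13, adjusted p = 0.00283) in control mice, and neither was called with median centring (−0.39 in RbpjiΔEC, and −0.084 in control mice) or with no normalization. Both other Ddx58 probe sets also read lower values in CCR2+ arrays, at −0.89 in RbpjiΔEC and −1.08 in control mice for one and −0.51 in RbpjiΔEC and −0.36 in control mice for the other. Dhx58, whose product LGP2 tunes both sensors, was higher by 1.41 in RbpjiΔEC and 1.71 in control mice, the helicase gene Ddx60 by 0.98 in RbpjiΔEC and 1.00 in control mice, and Zbp1, a sensor of Z-form nucleic acid, by 0.90 in RbpjiΔEC and 1.25 in control mice. MDA5 and RIG-I are sister sensors, and their genes differed in opposite directions between the labels under quantile normalization.

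Active OAS enzymes make a second messenger that activates RNase L, which cuts viral and cellular RNA. Of the 5 genes of the OAS family, OAS-like genes included, 4 were called higher in both genotypes. The OAS-like gene Oasl1 was not called in either (0.025 in RbpjiΔEC and −0.033 in control mice). In RbpjiΔEC mice Oas2 read 10.67, 10.52, 10.99 and 10.91 in CCR2+ arrays, against 8.55, 8.64, 8.34 and 8.26 in CCR2- arrays. Control mice gave 10.56, 10.67, 10.91 and 10.54 in CCR2+ and 8.74, 8.30, 8.44 and 8.17 in CCR2- arrays for Oas2. No CCR2+ value of Oas2 came within 1.5 log2 units of a CCR2- value. The difference was 2.32 (SE 0.14, adjusted p = 5.84e-10) in RbpjiΔEC and 2.26 (SE 0.14, adjusted p = 8.56e-10) in control mice. Oasl2 encodes an OAS-like protein with ubiquitin-like domains. Oasl2 stood at 9.56, 9.57, 9.65 and 10.26 in the CCR2+ arrays of RbpjiΔEC mice, against 6.91, 7.57, 7.70 and 7.89 in the CCR2- arrays. In control mice Oasl2 read 10.44, 9.47, 10.60 and 9.81 in CCR2+ arrays, against 7.52, 7.55, 7.63 and 7.36 in CCR2- arrays. The groups were apart in both genotypes, and the CCR2- value of RbpjiΔEC replicate 1 was the lowest of all. The difference was 2.24 (SE 0.24, adjusted p = 1.06e-06) in RbpjiΔEC and 2.56 (SE 0.24, adjusted p = 2.05e-07) in control mice. Oas1a differed by 1.23 in RbpjiΔEC and 1.58 in control mice, and its near-identical neighbour Oas1g may share signal with it.

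The values of Oas3 in RbpjiΔEC mice were 8.21, 8.23, 8.22 and 8.62 in CCR2+ and 7.29, 7.29, 7.39 and 7.22 in CCR2- arrays. For Oas3, control mice had 9.08, 8.22, 8.86 and 8.72 in CCR2+ arrays and 7.08, 7.22, 7.21 and 7.02 in CCR2- arrays. Oas3, the largest of the OAS enzymes, was thus higher in every CCR2+ array than in any CCR2- array. The difference was 1.02 (SE 0.14, adjusted p = 2.23e-05) in RbpjiΔEC and 1.59 (SE 0.14, adjusted p = 1.25e-07) in control mice. Oas2 and Oas3 lie next to each other on chromosome 5, as do Rsad2 and Cmpk2 on chromosome 12, and both genes of each pair were called higher.

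The IFIT proteins bind viral RNA caps and ends, and their 3 genes lie together on chromosome 19, yet they behaved in 3 ways. In RbpjiΔEC mice Ifit1 read 7.96, 8.04, 9.47 and 9.55 in CCR2+ arrays, against 7.05, 7.63, 7.92 and 7.82 in CCR2- arrays. Control mice gave 9.16, 8.90, 9.17 and 8.87 in CCR2+ and 7.26, 7.58, 7.60 and 7.03 in CCR2- arrays for Ifit1. Ifit1 was higher in CCR2+ arrays without overlap in both genotypes, but the CCR2+ arrays of RbpjiΔEC mice split into replicates 1 and 2 near 8.0 and replicates 3 and 4 near 9.5. Its difference was 1.15 (SE 0.32, adjusted p = 0.00749) in RbpjiΔEC and 1.66 (SE 0.32, adjusted p = 0.000416) in control mice. Ifit2 stood at 7.13, 6.86, 7.49 and 8.10 in the CCR2+ arrays of RbpjiΔEC mice, against 8.25, 8.65, 9.14 and 9.37 in the CCR2- arrays. In control mice Ifit2 read 7.88, 7.38, 7.40 and 7.42 in CCR2+ arrays, against 8.63, 8.74, 8.85 and 8.72 in CCR2- arrays. All 8 CCR2+ values of Ifit2 lay below all 8 CCR2- values. The difference was −1.45 (SE 0.25, adjusted p = 0.000137) in RbpjiΔEC and −1.21 (SE 0.25, adjusted p = 0.000711) in control mice, which is 0.365 times the CCR2- level in RbpjiΔEC and 0.431 times in control mice. Ifit3 was not called (−0.29 in RbpjiΔEC and −0.17 in control mice), and its near-identical copy Ifit3b may share its signal.

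**Figure D4:**
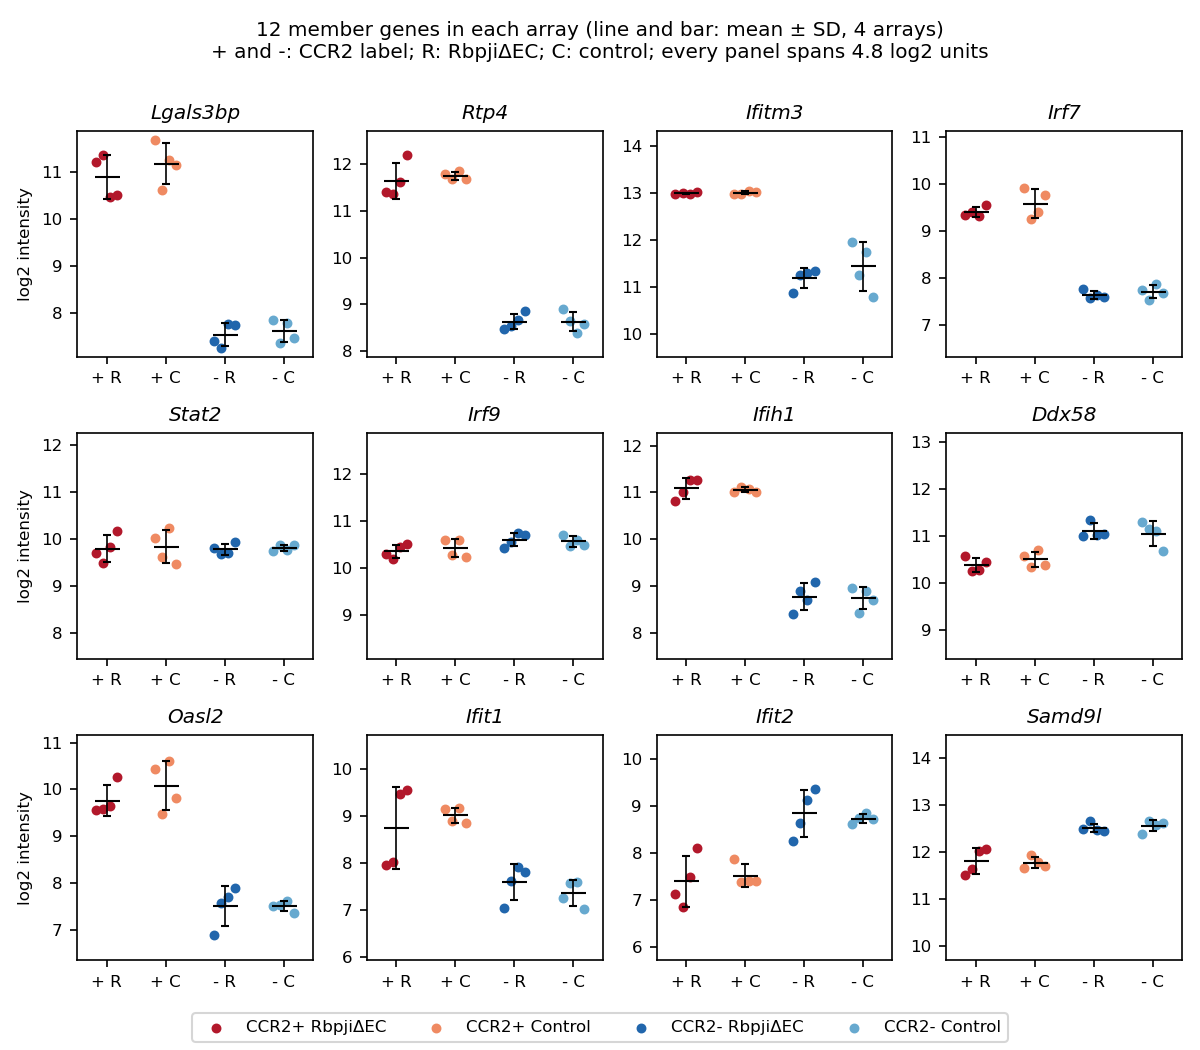
Log2 intensity of 12 genes in each array (dots), with the mean and SD of 4 arrays (line and bar), for CCR2+ RbpjiΔEC, CCR2+ Control, CCR2- RbpjiΔEC and CCR2- Control from left to right; every panel spans 4.8 log2 units. The Stat2 and Irf9 groups overlap between the labels, and Ifih1 and Ddx58 (called lower under quantile normalization alone) move in opposite directions. Ifit1 spreads over more than 1.5 log2 units in CCR2+ RbpjiΔEC arrays.

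Of 8 antiviral effectors, 5 were called higher and 1 lower in RbpjiΔEC mice, and 6 higher and 1 lower in control mice. Rsad2 encodes viperin, which makes a chain-terminating nucleotide. The values of Rsad2 in RbpjiΔEC mice were 9.18, 9.02, 10.002 and 9.83 in CCR2+ and 7.82, 8.08, 7.95 and 8.03 in CCR2- arrays. For Rsad2, control mice had 9.79, 9.62, 9.90 and 9.82 in CCR2+ arrays and 7.74, 7.81, 7.79 and 7.65 in CCR2- arrays. The labels did not overlap in either genotype. The difference was 1.54 (SE 0.17, adjusted p = 1.1e-06) in RbpjiΔEC and 2.04 (SE 0.17, adjusted p = 3.58e-08) in control mice. Cmpk2, which encodes a mitochondrial nucleotide kinase, was higher by 1.03 in RbpjiΔEC and 1.35 in control mice, and its other probe set read 2.45 in RbpjiΔEC and 2.82 in control mice. Among the genes of the Mx GTPase family, Mx1 was also higher. Only RNA was read, and whether these mice make working Mx proteins was not tested. In RbpjiΔEC mice Mx1 read 9.51, 9.48, 9.90 and 9.92 in CCR2+ arrays, against 8.52, 8.69, 8.73 and 8.80 in CCR2- arrays. Control mice gave 9.34, 9.71, 9.78 and 9.60 in CCR2+ and 8.35, 8.61, 9.01 and 8.61 in CCR2- arrays for Mx1. The labels stood apart by about 0.3 log2 units at the closest, in control mice. The Mx1 difference was 1.02 (SE 0.14, adjusted p = 2.32e-05) in RbpjiΔEC and 0.96 (SE 0.14, adjusted p = 4.05e-05) in control mice, and Mx2 differed by 0.97 in RbpjiΔEC and 0.90 in control mice, although its CCR2- means lay close to the trp control. Eif2ak2, which encodes the double-stranded RNA kinase PKR, was higher by 0.43 in RbpjiΔEC and 0.55 in control mice, and in RbpjiΔEC mice the call was lost without CCR2+ replicate 4 (0.37, adjusted p = 0.0665) or without CCR2- replicate 2 or 3 (adjusted p = 0.0549 and 0.0710). Isg20, an RNA exonuclease gene, was called in control mice (0.65) and not in RbpjiΔEC mice (0.40, adjusted p = 0.206), a contrast between genotypes that was itself not called. The Isg20 call was lost without any 1 of CCR2+ Control replicates 1, 2 and 4 and CCR2- Control replicates 1, 2 and 3, where its difference ran from 0.52 to 0.67. In RbpjiΔEC mice Isg20 was called without CCR2+ replicate 1, the low array (0.71, adjusted p = 0.00225), with array weights (0.52, adjusted p = 0.0345) and with no normalization (0.91, adjusted p = 0.00407).

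Samd9l encodes an antiviral factor that restrains translation. Samd9l stood at 11.49, 11.63, 12.01 and 12.05 in the CCR2+ arrays of RbpjiΔEC mice, against 12.48, 12.64, 12.46 and 12.44 in the CCR2- arrays. In control mice Samd9l read 11.65, 11.93, 11.78 and 11.70 in CCR2+ arrays, against 12.38, 12.64, 12.58 and 12.61 in CCR2- arrays. All CCR2+ values of Samd9l lay below all CCR2- values. The difference was −0.71 (SE 0.12, adjusted p = 0.000127) in RbpjiΔEC and −0.79 (SE 0.12, adjusted p = 4.03e-05) in control mice, and it was not called with median centring (−0.35 in RbpjiΔEC and −0.24 in control mice) or with no normalization. The values of Adar in RbpjiΔEC mice were 10.10, 10.37, 10.25 and 10.34 in CCR2+ and 10.31, 10.26, 10.35 and 10.36 in CCR2- arrays. For Adar, control mice had 10.63, 10.15, 10.24 and 10.27 in CCR2+ arrays and 10.50, 10.36, 10.34 and 10.32 in CCR2- arrays. Adar, the RNA-editing enzyme that marks self RNA, overlapped between the labels, with differences of −0.057 in RbpjiΔEC and −0.057 in control mice. The sign of Adar turned with median centring (0.24 in RbpjiΔEC and 0.35 in control mice) and with no normalization (0.53 in RbpjiΔEC mice, adjusted p = 0.0146, and 0.41 in control mice). Its other probe sets read −0.095 and −0.38 in RbpjiΔEC and 0.0066 and −0.74 in control mice.

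Among the membrane and mitochondrial proteins, Ifitm3 and Bst2 were called higher in both genotypes. Ifitm3 blocks the fusion of viruses with endosomes. In RbpjiΔEC mice Ifitm3 read 12.97, 12.99, 12.98 and 13.01 in CCR2+ arrays, against 10.87, 11.25, 11.29 and 11.33 in CCR2- arrays. Control mice gave 12.97, 12.98, 13.04 and 13.02 in CCR2+ and 11.95, 11.26, 11.74 and 10.78 in CCR2- arrays for Ifitm3. The 8 CCR2+ values were nearly equal, and all lay above the CCR2- values. The difference was 1.80 (SE 0.18, adjusted p = 4.88e-07) in RbpjiΔEC and 1.57 (SE 0.18, adjusted p = 2.47e-06) in control mice. Bst2 encodes tetherin, which holds budding virus at the cell surface. Bst2 stood at 10.92, 10.89, 10.46 and 10.48 in the CCR2+ arrays of RbpjiΔEC mice, against 10.22, 10.19, 10.26 and 10.25 in the CCR2- arrays. In control mice Bst2 read 11.05, 10.45, 10.79 and 10.65 in CCR2+ arrays, against 10.48, 9.94, 10.04 and 10.02 in CCR2- arrays. In RbpjiΔEC mice the labels did not overlap, and in control mice CCR2- replicate 1 exceeded CCR2+ replicate 2. The difference was 0.46 (SE 0.14, adjusted p = 0.0185) in RbpjiΔEC and 0.61 (SE 0.14, adjusted p = 0.00255) in control mice, and the call in RbpjiΔEC mice was lost without CCR2+ replicate 1 (0.38, adjusted p = 0.0632) or 2 (0.39, adjusted p = 0.0595). Xaf1 and Ifi27l2a were not called in either genotype in the main fit, with quantile normalization, all arrays and no replicate block. With no normalization Xaf1 was called higher in RbpjiΔEC mice (0.51, adjusted p = 0.0415). Ifi27l2a differed by −0.032 in RbpjiΔEC and 0.70 (adjusted p = 0.0659) in control mice. In control mice it was called higher with median centring (1.02) and with no normalization (1.07). The same call was made without CCR2+ Control replicate 2, CCR2- Control replicate 4 or CCR2+ RbpjiΔEC replicate 4 (0.85, 0.93 and 0.69). With quantile normalization of all arrays, the filter on dim genes and both replicate blocks gave this call too.

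The ubiquitin ligases and ADP-ribosyltransferases were mostly not called with quantile normalization. Of these 6 genes, 0 were called higher and 1 lower in RbpjiΔEC mice, and 2 higher (Parp14 at 0.45 and Dtx3l at 0.36) and 1 lower in control mice. The Dtx3l call was lost without CCR2+ Control replicate 1 or 3 or CCR2- Control replicate 1 or 4, where the difference ran from 0.25 to 0.33. The other Parp14 probe set read the opposite sign, −0.046 in RbpjiΔEC and −0.18 in control mice. Trim25, the ligase that activates RIG-I, was the lower one. The values of Trim25 in RbpjiΔEC mice were 12.10, 12.22, 11.94 and 12.002 in CCR2+ and 12.45, 12.60, 12.71 and 12.58 in CCR2- arrays. For Trim25, control mice had 12.11, 11.99, 12.18 and 11.78 in CCR2+ arrays and 12.59, 12.51, 12.56 and 12.40 in CCR2- arrays. No CCR2+ value reached a CCR2- value, yet the order depended on the scaling. The difference was −0.52 (SE 0.10, adjusted p = 0.000404) in RbpjiΔEC and −0.50 (SE 0.10, adjusted p = 0.000545) in control mice with quantile normalization, and in control mice it turned to 0.055 with median centring and 0.11 with no normalization. The other Trim25 probe sets read −0.61 and −0.044 in RbpjiΔEC and −0.55 and −0.037 in control mice with quantile normalization. Parp9 and Dtx3l, whose products form a complex, lie next to each other on chromosome 16. Trim30a, Herc6 and Parp9 were not called in either genotype in the main fit with quantile normalization. These calls moved with the scaling, and that of Herc6 also with the model. In RbpjiΔEC mice Parp14 (0.63) and Herc6 (0.63) were called higher with median centring, and with no normalization so were Parp14 (0.92), Herc6 (0.92), Trim30a (0.69), Dtx3l (0.67) and Parp9 (0.62), the last against −0.023 with quantile normalization. In control mice Trim30a was called higher with median centring (0.76) and with no normalization (0.81). Herc6 in control mice lay near the threshold (0.43, adjusted p = 0.0508) and was called with both other scalings. It was also called without CCR2+ Control replicate 4 or without CCR2+ RbpjiΔEC replicate 2, 3 or 4, and in RbpjiΔEC mice without CCR2+ RbpjiΔEC replicate 2 (0.50, adjusted p = 0.0139). With quantile normalization Herc6 was called in control mice by the filter on dim genes, the mean of probe sets, array weights and both replicate blocks. Array weights added Herc6 and Parp14 in RbpjiΔEC mice. Signal of Trim30a may include that of its near-identical copy Trim30d.

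The genes with the largest differences were in none of these families. Lgals3bp encodes a secreted glycoprotein that binds galectins. In RbpjiΔEC mice Lgals3bp read 11.23, 11.38, 10.47 and 10.52 in CCR2+ arrays, against 7.41, 7.26, 7.77 and 7.74 in CCR2- arrays. Control mice gave 11.70, 10.63, 11.27 and 11.16 in CCR2+ and 7.85, 7.37, 7.80 and 7.47 in CCR2- arrays for Lgals3bp. All CCR2+ values lay at least 2.5 log2 units above all CCR2- values of the same genotype. The difference was 3.35 (SE 0.23, adjusted p = 4.27e-09), a 10.2-fold higher level, in RbpjiΔEC and 3.57 (SE 0.23, adjusted p = 1.91e-09), 11.8-fold, in control mice. Rtp4 encodes a transport protein that also damps interferon responses. Rtp4 stood at 11.39, 11.36, 11.60 and 12.18 in the CCR2+ arrays of RbpjiΔEC mice, against 8.48, 8.55, 8.66 and 8.86 in the CCR2- arrays. In control mice Rtp4 read 11.77, 11.68, 11.85 and 11.67 in CCR2+ arrays, against 8.90, 8.64, 8.40 and 8.59 in CCR2- arrays. The gap was again wider than the spread within any group. The difference was 2.99 (SE 0.16, adjusted p = 1.05e-10) in RbpjiΔEC and 3.11 (SE 0.16, adjusted p = 6.58e-11) in control mice. Ifi35 encodes a partner of NMI. The values of Ifi35 in RbpjiΔEC mice were 10.05, 10.40, 10.16 and 10.13 in CCR2+ and 10.83, 10.84, 10.95 and 10.94 in CCR2- arrays. For Ifi35, control mice had 10.82, 10.18, 10.41 and 10.62 in CCR2+ arrays and 10.96, 10.94, 10.68 and 11.01 in CCR2- arrays. CCR2+ values of Ifi35 were lower without overlap in RbpjiΔEC mice, and the labels overlapped in control mice. The difference was −0.71 (SE 0.12, adjusted p = 0.000202) in RbpjiΔEC and −0.39 (SE 0.12, adjusted p = 0.0175) in control mice, and in control mice it was −0.28 (adjusted p = 0.0677) without CCR2+ replicate 2 and turned to 0.058 with median centring and 0.11 with no normalization. The other Ifi35 probe sets read −0.43 and −0.51 in RbpjiΔEC mice, but 0.099 and −0.097 in control mice.

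The other genes of the pathway did not move as one block either. Over all genes, 18.1% were called higher and 21% lower in RbpjiΔEC mice, and 19.4% and 21.4% in control mice. Counts near these shares are no result about the pathway. Of 9 measured interferon genes 0 were called higher and 1 lower in both genotypes. That gene was Ifna1, at −0.42 in RbpjiΔEC and −0.70 in control mice. It was not called lower in RbpjiΔEC mice with median centring or with no normalization. Its probe set may share signal with other interferon alpha genes. Ifnb1, interferon beta, was at 0.024 in RbpjiΔEC and −0.12 in control mice. Ifna2, Ifna4, Ifna11, Ifng and Ifnb1 read 6.06 to 6.98 over all arrays, around the trp control of 6.42. For these genes a small difference does not show equal expression. Of the receptor and its kinases, the receptor chain gene Ifnar2 averaged 12.71 in CCR2+ against 11.20 in CCR2- arrays of RbpjiΔEC mice, and 12.76 in CCR2+ against 11.23 in CCR2- arrays of control mice. Its differences were 1.51 in RbpjiΔEC and 1.53 in control mice. Ifnar1 was at −0.031 in RbpjiΔEC and 0.17 in control mice and was not called. Jak1 was called lower with quantile normalization alone (−0.58 in RbpjiΔEC and −0.58 in control mice). Isg15 was not analysed here.

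Among 15 genes that start interferon production, 5 were called higher and 4 lower in RbpjiΔEC mice (all genes: 18.1% and 21%). In control mice 4 were called higher and 4 lower (all genes: 19.4% and 21.4%). Ikbke, a kinase that activates IRF3, was higher by 1.85 in RbpjiΔEC and 1.85 in control mice, the DNA sensor gene Cgas by 1.77 in RbpjiΔEC and 1.48 in control mice, and the RNA receptor gene Tlr3 by 1.57 in RbpjiΔEC and 1.46 in control mice. Tlr9, a receptor for unmethylated DNA that B cells express strongly, was at −3.37 in RbpjiΔEC and −3.32 in control mice, and Sting1, the adaptor downstream of cGAS, at −1.57 in RbpjiΔEC and −1.37 in control mice. These 5 genes kept their direction and call with median centring and with no normalization. Of 7 brakes and nucleases, 1 was called higher in both genotypes, Socs3 (0.98 in RbpjiΔEC and 0.82 in control mice), and 3 were called lower in RbpjiΔEC and 2 in control mice. With no normalization 3 were called higher and 0 lower in RbpjiΔEC mice. Socs1 was lower (−0.59 in RbpjiΔEC and −0.55 in control mice), although not called in RbpjiΔEC mice with no normalization. SOCS proteins are inhibitors of JAK kinases.

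Of 32 further interferon-stimulated genes, 9 were called higher and 12 lower in RbpjiΔEC mice (all genes: 18.1% and 21%). In control mice 9 were called higher and 9 lower (all genes: 19.4% and 21.4%). The largest differences were in Ifi204, a DNA sensor gene (4.45 in RbpjiΔEC and 4.21 in control mice), Ifitm2 (2.77 in RbpjiΔEC and 2.45 in control mice) and Phf11d (2.66 in RbpjiΔEC and 2.60 in control mice). In the other direction they were in Ms4a4c (−3.73 in RbpjiΔEC and −3.69 in control mice), Apobec3, a cytidine deaminase gene (−2.54 in RbpjiΔEC and −2.42 in control mice), and Pml, a nuclear body gene (−1.37 in RbpjiΔEC and −1.40 in control mice). With median centring the lower calls numbered 6 in each genotype, and all 6 named genes kept their direction and call. The B cell and macrophage markers given above moved with all of these label differences, and their part was not tested. Plasmacytoid dendritic cells, the strongest producers of interferon alpha, had 8 of 8 markers at lower values in CCR2+ arrays in both genotypes, 4 called in RbpjiΔEC and 6 in control mice, and the largest of these differences were in Spib and Ly6d, which B cells express as well.

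The genotype comparison within each label asked whether loss of endothelial Rbpj changed the programme in the sorted cells. In CCR2+ arrays 0 of the 38 genes passed the limma test, as 0 of all genes did (0% of all genes called). At an unadjusted p below 0.05 there were 2, Oas3 and Ifi35, where 4.56% of all genes reached it, and groups did not overlap for 0 of the 38 against 3.39% of all genes. The signs leaned one way: 31 of the 38 read lower in RbpjiΔEC mice, against 52.5% of all genes. The median was −0.084, with −0.0081 over all genes, and the range was −0.40 to 0.10. With array weights 10 of the 38 signs turned, as did 10 without CCR2+ Control replicate 1 and 9 without CCR2+ RbpjiΔEC replicate 2. With median centring 4 turned, and with no normalization 1. The genes of a shared programme are not independent, so the count of signs carries no test.

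Oas3 read 8.21, 8.23, 8.22 and 8.62 in CCR2+ RbpjiΔEC arrays, against 9.08, 8.22, 8.86 and 8.72 in CCR2+ Control arrays. The lowest control value lay inside the RbpjiΔEC range, and replicate 4 was the high one of the RbpjiΔEC arrays. The Oas3 difference was −0.40 (SE 0.14, adjusted p = 0.966), with a 95% interval from −0.71 to −0.094. Ifi35 read 10.05, 10.40, 10.16 and 10.13 in CCR2+ RbpjiΔEC arrays, against 10.82, 10.18, 10.41 and 10.62 in CCR2+ Control arrays. Here RbpjiΔEC replicate 2 exceeded the lowest control array. The Ifi35 difference was −0.32 (SE 0.12, adjusted p = 0.966). Rsad2 read 9.18, 9.02, 10.002 and 9.83 in CCR2+ RbpjiΔEC arrays, against 9.79, 9.62, 9.90 and 9.82 in CCR2+ Control arrays. For Rsad2 the RbpjiΔEC arrays lay on both sides of the control arrays, and the difference was −0.27 (SE 0.17, adjusted p = 0.966).

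In the other direction the smallest p-values belonged to Oas2 (0.10, SE 0.14), Mx1 (0.10, SE 0.14) and Trim25 (0.051, SE 0.10), each at an adjusted p above 0.97. Their values in every array are given above, and the genotypes overlapped in all 3. Irf7 differed by −0.17, Usp18 by −0.16, Irf9 by −0.068 and Stat2 by −0.047. The 95% intervals of the 38 differences all reached below 0, and only those of Oas3 and Ifi35 lay wholly below it. For Ifit1, with the widest SE of the set, the difference was −0.27 and its interval ran from −0.94 to 0.40.

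The set was more variable than most genes within CCR2+ arrays. Within CCR2+ arrays the median SD of the 38 genes was 0.28 in RbpjiΔEC and 0.25 in control mice, against 0.16 over all genes in both, and 29 of the 38 exceeded that in each group. In the CCR2+ RbpjiΔEC arrays the median deviation of the 38 genes from the mean of the CCR2+ arrays was −0.27, −0.18, 0.013 and 0.19 for replicates 1 to 4, and in the CCR2+ Control arrays it was 0.22, −0.080, 0.15 and −0.052. CCR2+ RbpjiΔEC replicate 4 held the highest value of its group for 23 of the 38 genes, against 18.8% of all genes. Replicate 1 held the lowest for 16 genes and replicate 2 for 15, against 30.3% and 24.6% of all genes. In CCR2- arrays the median SD was 0.14 in RbpjiΔEC and 0.19 in control mice, close to the 0.15 and 0.17 of all genes. Without CCR2+ RbpjiΔEC replicate 4 the median genotype difference became −0.17, and without replicate 2 −0.018.

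**Figure D5:**
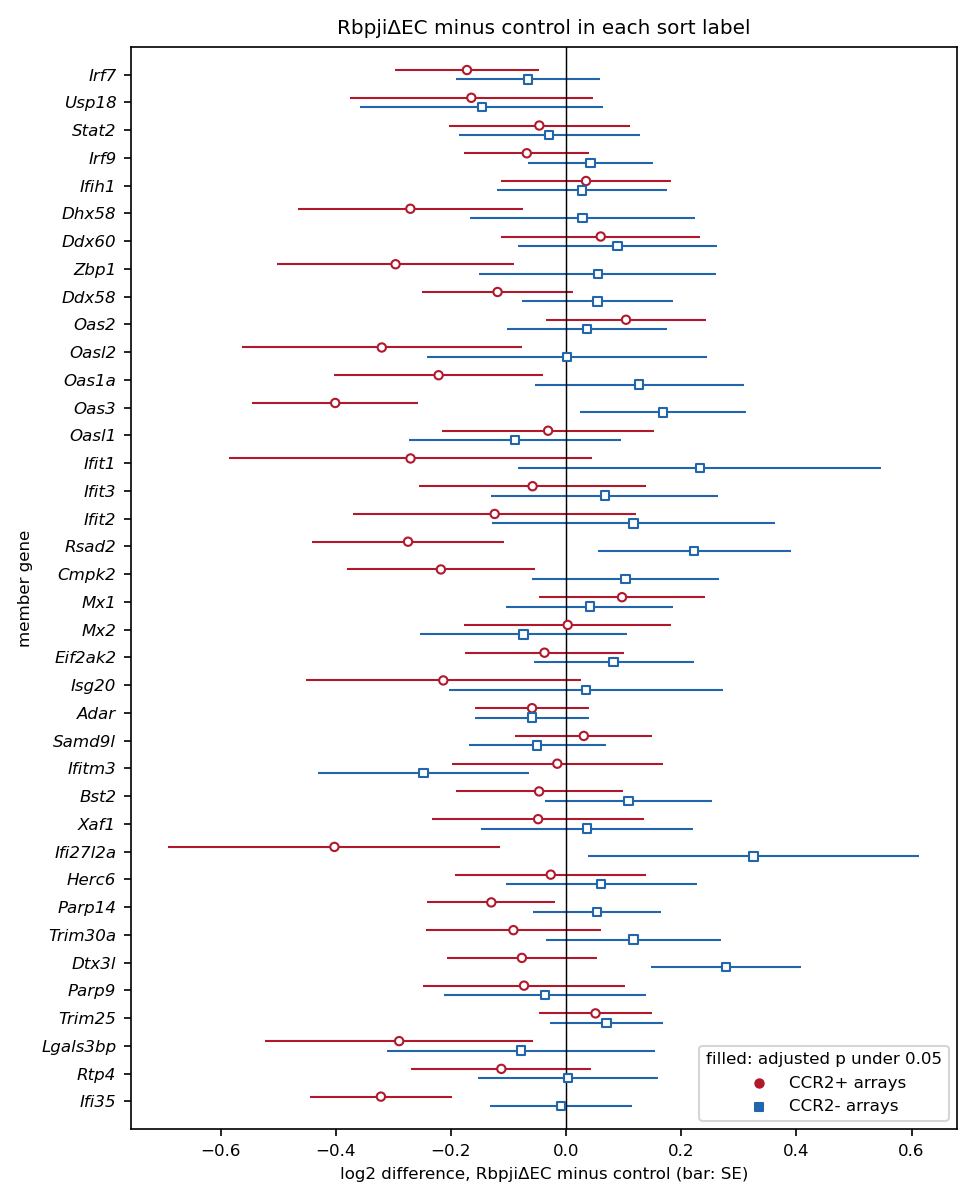
Log2 difference, RbpjiΔEC minus control, of each gene (rows) with its SE, in CCR2+ arrays (circles) and CCR2- arrays (squares), 4 arrays a group; no symbol is filled because no gene had adjusted p below 0.05. The differences stay between −0.40 and 0.10 in CCR2+ arrays and between −0.25 and 0.33 in CCR2- arrays.

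In CCR2- arrays 0 of the 38 genes passed the test as well (0% of all genes called). There was 1 gene with an unadjusted p below 0.05, Dtx3l, against 2.14% of all genes, and groups did not overlap for 3, Dtx3l, Rsad2 and Oas3, all higher in RbpjiΔEC mice, against 1.56% of all genes. The median was 0.042, with −0.0017 over all genes, and 27 genes were positive and 11 negative. The median turned to −0.11 with no normalization, where 21 of the 38 signs changed, and leaving out 1 array moved it between 0.0053 (without CCR2- RbpjiΔEC replicate 4) and 0.085 (without CCR2- RbpjiΔEC replicate 1). Dtx3l read 11.24, 11.03, 11.08 and 11.20 in CCR2- RbpjiΔEC arrays, against 10.69, 11.03, 10.98 and 10.73 in CCR2- Control arrays. The RbpjiΔEC values of Dtx3l lay above the control ones by a margin smaller than 0.01, and the difference was 0.28 (SE 0.13, adjusted p = 1.00). Rsad2 differed by 0.22 (SE 0.17, adjusted p = 1.00) and Oas3 by 0.17 (SE 0.14, adjusted p = 1.00), on the values given above. Other probe sets read −0.034 for Dtx3l, and 0.10 and −0.013 for Rsad2, in the same comparison. On the negative side the smallest p-values were those of Ifitm3 (−0.25, SE 0.18), Usp18 (−0.15, SE 0.21) and Adar (−0.059, SE 0.10), and in these 3 the groups overlapped.

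The test of whether the genotype difference itself differed between the labels also called 0 genes (0% of all genes called). An unadjusted p below 0.05 was reached by 1 of the 38, Oas3 (−0.57, SE 0.20, adjusted p = 0.999), against 3.05% of all genes. The median over the set was −0.12, and 31 of the 38 were negative, against 51.6% of all genes. With no normalization the median was 0.017 and 13 signs changed, and leaving out 1 array moved it between −0.19 and −0.067 (the last without CCR2+ RbpjiΔEC replicate 2). Ifi27l2a had the largest value in size, −0.73 (SE 0.41), from −0.40 in CCR2+ and 0.33 in CCR2- arrays. The 2 genotype comparisons share no arrays. None of the other pathway genes was called for genotype or for the interaction. Cxcl10, a chemokine gene that interferon induces, had the smallest p among them in CCR2+ arrays, with means of 6.64 in RbpjiΔEC and 7.25 in control mice (−0.61, unadjusted p = 0.0235, adjusted p = 0.966), and its RbpjiΔEC mean is close to the trp control.

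Other measures were set beside the genotype values. All 8 measured neutrophil markers had negative differences, RbpjiΔEC minus control, in both labels (median −0.43 in CCR2+ and −1.01 in CCR2- arrays); 0 were called, and 4 of the 8 had an unadjusted p below 0.05 in CCR2- arrays. Their mean level ran from 6.91 to 7.13 in CCR2- RbpjiΔEC and from 6.86 to 9.17 in CCR2- Control arrays. Without Control replicate 2 the median difference was −0.12 in CCR2+ arrays, with 7 of the 8 negative, and −0.42 in CCR2- arrays, with 5 of the 8 negative, a check chosen after seeing the data. The ratio of the 3′ to the 5′ actin control, an index of RNA quality, averaged 0.39 ± 0.096 log2 units in CCR2+ RbpjiΔEC and 0.26 ± 0.074 in CCR2+ Control arrays (SD, n = 4 each), and 0.31 ± 0.074 in CCR2- RbpjiΔEC and 0.35 ± 0.021 in CCR2- Control arrays (SD, n = 4 each). Their part in the genotype values was not tested.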

How the data were processed

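The authors deposited 1 table of linear intensities for 45101 Affymetrix mouse probe sets on 16 arrays; their summarization and scaling are not given in the sources used here. Here log2 intensities were quantile normalized over the 16 arrays. Of the probe sets 34958 carry 1 gene symbol in the platform annotation, which can be old, 932 carry several and 9211 none; the set of highest mean was kept for each of 18194 genes.

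One limma (version 3.58.1, R 4.3.3) model of 4 group means gave every comparison; tests were two-sided, and p-values were adjusted by Benjamini and Hochberg's method across all 18194 genes. The script was tested on simulated data. The number of arrays, 4 a group, limits the precision.

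Values in every array are given for the 6 largest called differences in each direction between the labels, the 3 smallest p-values in each direction between genotypes, and for Irf7, Irf9, Stat2, Usp18, Ifitm3 and Bst2. Ifit1 was added after its values were seen. The members, the other pathway lists and the marker lists were chosen with earlier results of these data known. Promoter sequences and gene order are from RefSeq, build GRCm38.p6. Alternatives were median centring, no normalization, a filter on dim genes, the mean of probe sets, a trended robust variance, array weights, replicate blocks, fits within a label and leaving out each array.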

Additional observations from a re-analysis of the deposited data

Results flagged for a closer look

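In 9 of the 152 gene-by-group sets of 4 arrays, 1 array stood apart from the others by more than the critical value of Dixon's test; chance flags about 1 set in 20. CCR2+ RbpjiΔEC replicate 4 was high for Oas3 (8.62) and for Oasl2 (10.3), and CCR2+ RbpjiΔEC replicate 1 was low for Isg20 (8.83, with the next at 10.03). CCR2+ Control replicate 1 was high for Ifit2 (7.88) and Ifit3 (9.13) and low for Ddx60 (9.02). Among CCR2- RbpjiΔEC arrays, replicate 2 was high for Ddx58 (11.3) and low for Herc6 (9.87), and replicate 1 was low for Ifitm3 (10.9). The cause was not tested.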

How the results depend on the processing

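Scaling between arrays was the choice that moved the label comparison. With median centring 1 gene was called lower in each genotype and with no normalization 1 in each, against 5 with quantile normalization. The median difference of the set was then 0.75 in RbpjiΔEC and 0.98 in control mice with median centring, and 1.04 in RbpjiΔEC and 1.03 in control mice with no normalization. Trim25 turned to 0.14 in RbpjiΔEC mice with no normalization, and in control mice to 0.055 with median centring and 0.11 with no normalization; Ifi35 turned in control mice to 0.058 and 0.11 under the same settings. The cause was not tested. Over all genes, 3290 were called higher and 3817 lower in RbpjiΔEC and 3532 and 3891 in control mice with quantile normalization, 3518 and 2853 in RbpjiΔEC and 4390 and 2614 in control mice with median centring, and 5689 and 1197 in RbpjiΔEC and 4584 and 1730 in control mice with no normalization, which also shifted the median of all genes to 0.23 in RbpjiΔEC mice between the labels and to −0.16 between genotypes in CCR2- arrays.

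Leaving out each array in turn left 19 to 21 genes higher and 5 to 6 lower in RbpjiΔEC mice and 21 to 25 higher and 4 to 5 lower in control mice, with a median difference of 0.42 to 0.57 in RbpjiΔEC and 0.62 to 0.83 in control mice. No genotype or interaction call was made for the 38 genes under any alternative run. The CCR2+ genotype median was −0.020 with array weights, against −0.084 without. In control mice the mean of all probe sets lost Ifi35 and Parp14 and added Herc6 and Adar. The filter on dim genes left 36 of the 38. Whether the replicate numbers pair the samples cannot be told from these values. Over 24 same-number pairs the correlation of deviations ran from −0.38 to 0.40, and 8 exceeded 0.1. Of 16 arrays, 6 correlated best with their own number. Most of these pairs cross genotypes. Within a genotype, CCR2+ with CCR2- arrays of replicates 1 to 4 read 0.24, 0.041, 0.064 and 0.13 in RbpjiΔEC mice. In control mice they read 0.053, −0.032, 0.21 and 0.40. With the replicate block 20 genes were higher and 5 lower in RbpjiΔEC mice, 25 were higher and 5 lower in control mice, where Ifi27l2a and Herc6 were added, and 0 were called for genotype. With the block within genotype Irf9 was added to the lower genes of RbpjiΔEC mice (adjusted p = 0.0315).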
